A study of Zea mays with 24 samples.

Results

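The maize inbred lines Han21 and Ye478 were compared in shoots of three-leaf-stage seedlings that had been kept as the controls of a drought and re-watering experiment. The comparison used 6 of the study's 24 arrays, chosen by their labels: 3 arrays of Han21 control seedlings and 3 of Ye478 control seedlings, each labelled as a biological replicate. The other 18 arrays hold the same lines under moderate drought, severe drought and re-watering, with 3 arrays in each of those 6 groups, and they enter here only to share the estimate of the spread and to show whether a line difference was also present there. No transgene or mutation separates the groups, so every difference below is one between 2 genotypes grown under the control treatment. The labels call the tissue shoot, and the protocol for RNA extraction names mesocotyls, the stem-like organ between the seed and the first leaf node. The labels do not say how many plants went into an array.

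Inbred lines of maize are nearly homozygous, so plants of one line are genetically alike while 2 lines differ at many genes, in the presence of whole gene copies as well as in sequence. Han21 has been described as drought-tolerant and Ye478 as drought-sensitive. Expression was measured on the Affymetrix maize genome array, where each transcript is represented by one or more probe sets of short oligonucleotides, and the MAS5 algorithm turns the brightness of a probe set into one signal. A base difference between a line and the oligonucleotides weakens their binding, so a low signal in one line can come from less transcript or from a different sequence. The part of such sequence differences in the results was not tested, and for this reason probe sets of one gene are set side by side below. In whole shoots, fewer cells of a type and less RNA per cell cannot be told apart.

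The 6 arrays were alike in scale. Their median signals lay between 172 and 191 for Han21 and between 173 and 193 for Ye478. Across the tested probe sets the log2 signals of arrays of the same line correlated with r between 0.965 and 0.982, and those of arrays of different lines with r between 0.823 and 0.85. Both lines showed the expression of green shoot tissue: of 25 probe sets for 16 genes of photosynthesis, 23 were above the median of the array on all 3 arrays of Han21 and 23 on all 3 of Ye478, and their summed signal was 115300 to 149800 in Han21 and 114140 to 143050 in Ye478. Of 15 endosperm probe sets, 14 lay under the 40th percentile on all 3 arrays of Han21 and 14 on all 3 of Ye478. The remaining one, bt2, a subunit of ADP-glucose pyrophosphorylase singled out after its values were seen, averaged 167 ± 14.7 in Han21 and 265 ± 62.3 in Ye478 (SD, n = 3 each). The 3 embryo and 5 pollen probe sets were all under that level in both lines. The log2 ratio of 3′ to 5′ signal, a measure of RNA integrity, overlapped between the lines for each of the 7 pairs of maize control probe sets on the array. For 4 of these 7 pairs, those of an actin, ef1a, a Gapdh and ubiquitin, the Han21 array was nevertheless below the Ye478 array of the same replicate number each time. The means of the ubiquitin pair were 0.37 ± 0.25 in Han21 and 0.91 ± 0.52 in Ye478 (log2, SD, n = 3 each), and the part of this in the line differences was not tested.

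At an adjusted p under 0.05, 3944 of 12111 tested probe sets differed between the lines, which is 32.6%. Of these, 2087 (17.2%) were higher in Han21 and 1857 (15.3%) were lower in Han21. A difference of at least 2-fold was reached by 1704 probe sets (14.1%), 871 of them higher (7.19%) and 833 lower (6.88%) in Han21. At least 4-fold differences were seen for 331 higher and 305 lower probe sets, and at least 16-fold differences for 65 higher and 81 lower ones. The median difference over all tested probe sets was 0.01 on the log2 scale, and the median size among the called ones was 0.88. The share of probe sets that passed was higher among dim ones: 35% among the dimmest of 4 equal classes of mean signal and 27.6% among the brightest, and for differences of at least 2-fold 22.7% and 7.43%. Without the replicate 2 arrays of all groups, 2470 probe sets passed, of which 2446 were among the 3944.

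**Figure D1:**
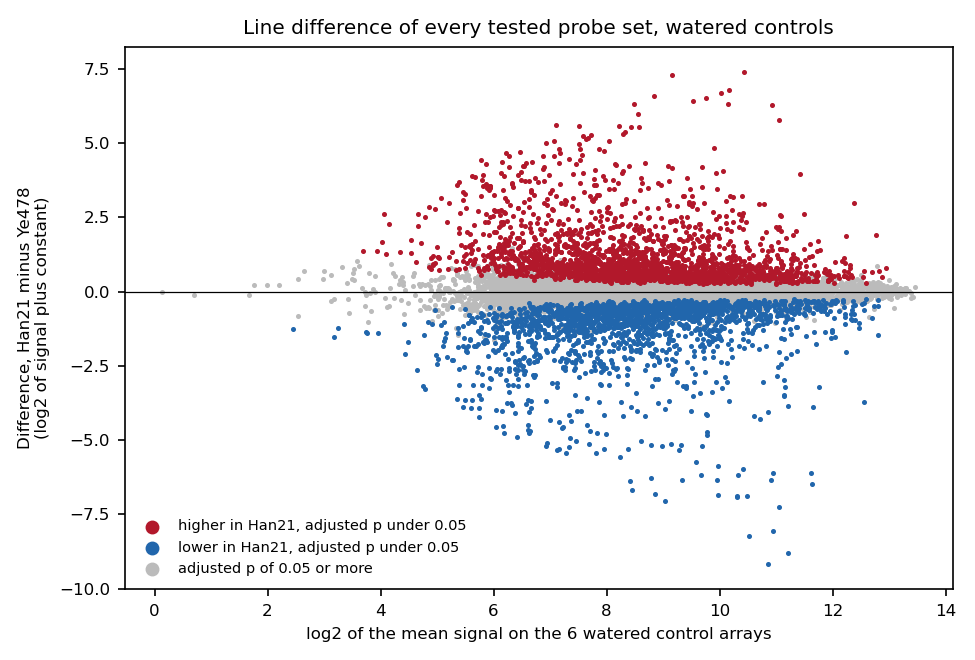
Line difference of every tested probe set (vertical axis, Han21 minus Ye478, log2 of signal plus a constant) against the log2 of its mean signal on the 6 control arrays (horizontal axis). Red points passed the test and were higher in Han21 (2087), blue points passed and were lower in Han21 (1857), and grey points did not pass; the clouds above and below 0 are of similar size.

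Among named genes, the largest excess in Han21 was that of gst19, a glutathione S-transferase, an enzyme class that joins glutathione to toxic or reactive compounds. Its signal was 1603, 1472 and 1337 in the 3 Han21 arrays, against 9.81, 27.9 and 6.37 in the 3 Ye478 arrays, so every Han21 array stood far above every Ye478 array. The difference was 6.42 ± 0.24 on the log2 scale (SE; adjusted p = 3.49e-14). The lipoxygenase gene lox3, whose product adds oxygen to unsaturated fatty acids, gave 714, 1087 and 1303 in Han21 and 67.6, 28.9 and 60.8 in Ye478, a difference of 4.22 ± 0.31 (adjusted p = 4.95e-10). The ribosomal protein gene rps21b averaged 1821 ± 204 in Han21 and 160 ± 9.04 in Ye478 (SD, n = 3 each), a difference of 3.47 ± 0.18. This is far from the other tested ribosomal protein genes, which lay between -1.35 and 0.53.

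Other genes high in Han21 belong to several pathways. The flavanone 3-hydroxylase gene fht1, an early step towards anthocyanins, gave 1229, 1754 and 1908 in Han21 and 355, 134 and 310 in Ye478, a difference of 2.68 ± 0.26 (adjusted p = 2.93e-08). PPCK1 encodes a kinase that phosphorylates phosphoenolpyruvate carboxylase, the first carbon-fixing enzyme of C4 leaves. Its signal was 1092, 936 and 962 in Han21 and 166, 197 and 194 in Ye478, a difference of 2.40 ± 0.16 (adjusted p = 1.21e-10). The gene listed as csr1, for which no role is given here, averaged 1166 ± 69.8 in Han21 and 206 ± 54.2 in Ye478 (SD, n = 3 each), a difference of 2.51 ± 0.17. The ubiquitin-conjugating enzyme gene ubc7 had 2007, 2732 and 2124 in Han21 and 119, 640 and 586 in Ye478 on one of its 5 probe sets, and the wide spread among the Ye478 arrays left a difference of 2.65 ± 0.67 (adjusted p = 0.00358). The probe sets of gst13, aba1, his1, tub6 and aoc1 that complete the 12 largest are described with the other probe sets of those genes below.

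**Figure D2:**
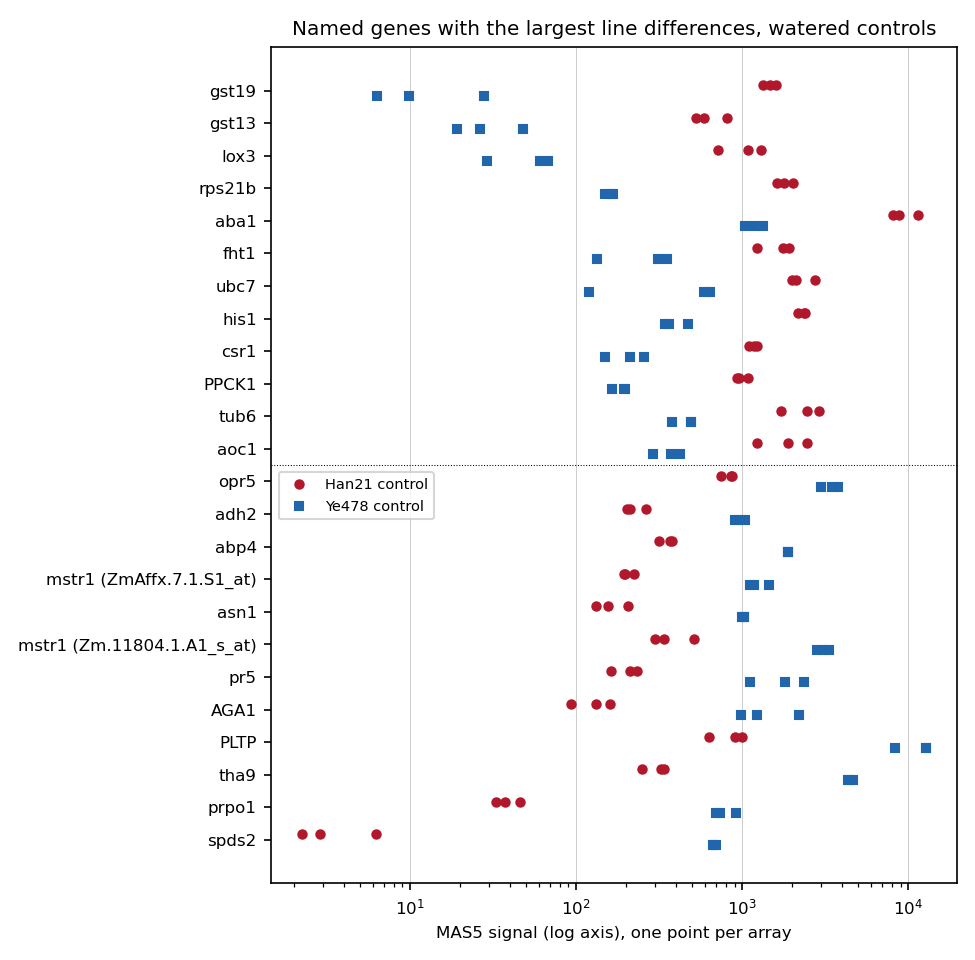
Signal on each control array (log axis, one point per array) for the 12 named probe sets with the largest differences in each direction, with Han21 as red circles above and Ye478 as blue squares below in each row. No Han21 point reaches the range of the Ye478 points of the same gene; that separation was part of how these genes were chosen.

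The largest deficit in Han21 among named genes was that of spds2, a spermidine synthase gene of the polyamine pathway. Its signal was 6.25, 2.86 and 2.25 in Han21, against 669, 695 and 675 in Ye478. The Han21 values are near the bottom of the array's range, so the size of the difference, -6.39 ± 0.33 (adjusted p = 1.62e-12), depends on the constant added before taking log2: it was -4.99 with 4 times the constant and -7.63 with none. The same holds for gst19, at 5.55 and 6.93. The gene prpo1, for protoporphyrinogen oxidase, an enzyme of chlorophyll and haem synthesis, gave 37.2, 32.8 and 45.9 in Han21 and 701, 739 and 915 in Ye478, a difference of -4.19 ± 0.21 (adjusted p = 1.5e-12). For tha9 the signals were 339, 249 and 326 in Han21 and 4412, 4625 and 4314 in Ye478, a difference of -3.86 ± 0.17. AGA1, an alkaline alpha-galactosidase gene, whose product can split raffinose-type sugars, gave 93.1, 160 and 131 in Han21 and 2208, 988 and 1226 in Ye478, a difference of -3.43 ± 0.76 (adjusted p = 0.00111).

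Further genes of other pathways were lower in Han21. The auxin-binding protein gene abp4 had 379, 366 and 316 in Han21 and 1878, 1880 and 1899 in Ye478, a difference of -2.40 ± 0.11 (adjusted p = 2.19e-13). The pathogenesis-related gene pr5, of the thaumatin-like family, had 163, 232 and 211 in Han21 and 1809, 2350 and 1114 in Ye478, a difference of -3.04 ± 0.45 (adjusted p = 1.29e-05). The alcohol dehydrogenase gene adh2, of fermentation, averaged 227 ± 33.6 in Han21 and 971 ± 63.2 in Ye478 (SD, n = 3 each). The 12-oxo-phytodienoate reductase gene opr5 averaged 823 ± 63.2 in Han21 and 3401 ± 399 in Ye478 (SD, n = 3 each). The monosaccharide transporter gene mstr1, the asparagine synthetase gene asn1 and the lipid transfer protein gene PLTP complete the 12 and are described below with their several probe sets.

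Probe sets with no gene name held still larger differences. The largest excess in Han21 gave 2498, 2480 and 3271 in Han21 and 14.4, 13.5 and 7.71 in Ye478, and the next largest gave 1330, 1113 and 963 in Han21 and 6.79, 1.86 and 0.617 in Ye478. In the other direction, the largest gave 1.33, 2.30 and 1.59 in Han21 and 4315, 3760 and 3024 in Ye478, and the next gave 2.35, 5.69 and 11.5 in Han21 and 5685, 4259 and 4309 in Ye478. Counted without a test, 142 probe sets were above the median on the 3 Han21 arrays and under the 40th percentile on the 3 Ye478 arrays, and 141 showed the opposite, together 1.61% of the 17621 probe sets that are not array controls. With the low line under the 20th percentile instead, 24 and 27 probe sets were left. For 37 of the 142 and 56 of the 141, the same pattern was present on all 24 arrays, that is in every treatment. The genes spds2 and prpo1 were in this last set, low on all 12 Han21 arrays and high on all 12 Ye478 arrays. The gst19 and lox3 probe sets were not, since they did not meet it on every array of the other treatments.

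The glutathione S-transferases were the largest of the gene lists that deal with defence and detoxification. In this and the other lists a gene is counted by its brightest probe set. Of 28 tested members, 7 were higher and 3 lower in Han21 and 18 did not pass, 35.7% called against 32.6% of all tested probe sets, with a median difference of 0.26 against 0.01. Besides gst19, gst28 had 93.1, 106 and 135 in Han21 and 4.89, 4.36 and 4.71 in Ye478 (difference 3.64 ± 0.29), and gst2 averaged 1192 ± 49.7 in Han21 and 311 ± 67.7 in Ye478 (SD, n = 3 each; difference 1.94 ± 0.21). The differences of the members ranged from -1.74 to 6.42, so the family did not move one way.

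Among defence and jasmonate genes, 1 of 14 tested members was higher in Han21 (lox3) and 6 were lower, 50% called against 32.6% of all tested probe sets, of which 15.3% were lower. The median difference was -0.71 against 0.01. Jasmonates are wound hormones made from fatty acids by lipoxygenase, allene oxide synthase, allene oxide cyclase and 12-oxo-phytodienoate reductase. In this list opr5 (-2.04 ± 0.16) and pr5 were among the lower members. Whether the products of opr5 and lox3 take part in jasmonate synthesis was not examined. Of 5 benzoxazinoid genes, which make and activate the defence compounds of young grasses, 1 passed (20%). This was igl1, which makes free indole and averaged 428 ± 50.5 in Han21 and 213 ± 16.8 in Ye478 (SD, n = 3 each; difference 0.99 ± 0.14). The glucosidase gene glu2 (-0.31, adjusted p = 0.235) and bx6 (-0.52, adjusted p = 0.0555) did not pass. With the replicate number as a block, this bx6 probe set had an adjusted p of 0.0371. The other bx6 probe set went the opposite way (0.53, not called), and the pair differed by the pair test (adjusted p = 0.000899). No line direction can be given for bx6.

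Few genes were tested for the flavonoid, lignin and water-deficit lists. The shares called were 33.3% (flavonoid), 20% (phenylpropanoid), 50% (dehydrin and LEA) and 33.3% (abscisic acid and carotenoid). Of all tested probe sets, 32.6% were called. In the flavonoid list fht1 passed out of 3, while a2 (0.08) and the regulator pl1 (0.18) did not. In the phenylpropanoid list 1 of 5 passed: cncr1, a cinnamoyl-CoA reductase of lignin synthesis, averaged 909 ± 89.9 in Han21 and 432 ± 30.4 in Ye478 (SD, n = 3 each; difference 1.06 ± 0.17). The differences of 4CL (0.54, adjusted p = 0.0543) and ccr2 (0.40, adjusted p = 0.304) did not pass, and with the block 4CL had an adjusted p of 0.0381. Of 4 dehydrin and LEA genes, whose products protect drying cells, 2 were lower in Han21. The dehydrin dhn2 averaged 265 ± 37.5 in Han21 and 434 ± 105 in Ye478, and mlg3 gave 31.2, 45.8 and 7.11 in Han21 and 67.5, 234 and 43.9 in Ye478, where the lines overlap. Both calls were lost in places, at adjusted p = 0.12 for dhn2 without the replicate 1 arrays and 0.167 for mlg3 without Ye478 control replicate 2. Of 6 genes of abscisic acid and carotenoid synthesis, the phytoene synthase psy2 was higher (203 ± 48.2 in Han21, 75.5 ± 15.3 in Ye478) and the aldehyde oxidase AO1 lower (44.8 ± 7.68 in Han21, 86.5 ± 21.2 in Ye478; SD, n = 3 each), while vp14, which makes the cleavage enzyme that commits carotenoids to abscisic acid, did not pass (0.68, adjusted p = 0.0828). The AO1 call was lost at an adjusted p of 0.0891 without the replicate 2 arrays. Both AO1 means lay under the 40th percentile of the control arrays (93.6 to 106.8). So did both vp14 means, 81.5 in Han21 and 48.6 in Ye478.

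**Figure D3:**
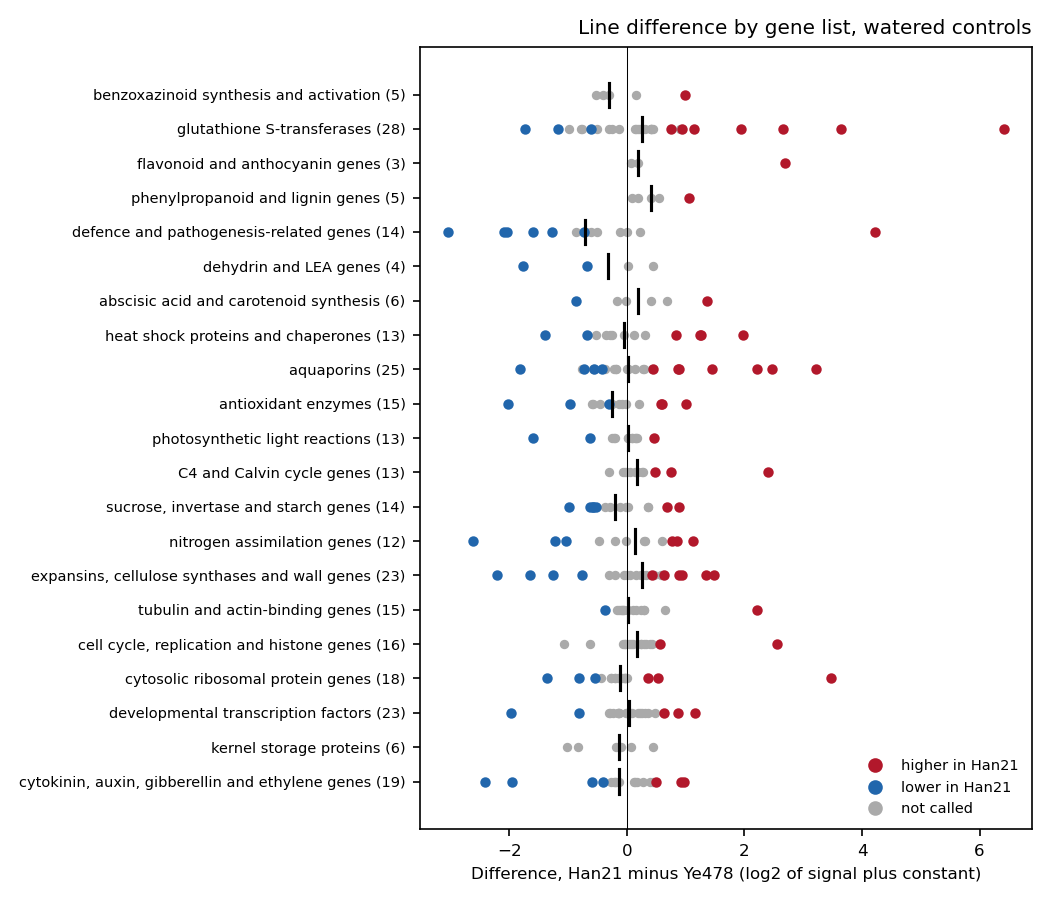
Line difference (Han21 minus Ye478, log2 of signal plus constant) of the tested genes of 21 lists, one point per gene by its brightest probe set, with the number of tested genes in brackets and the median as a black bar. Red and blue points passed the test as higher and lower in Han21. Most lists hold points on both sides of 0; the defence list has 6 blue points and 1 red one, and the C4 and Calvin cycle list 3 red points and no blue one.

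Heat shock proteins and chaperones were split, with 4 of 13 higher, 2 lower and a median of -0.05. The share called was 46.2%, against 32.6% of all tested probe sets. The chaperone genes hsp101 (148 ± 13.4 in Han21, 34.2 ± 6.51 in Ye478), bip2 of the endoplasmic reticulum (1323 ± 182 in Han21, 545 ± 61.5 in Ye478) and the small heat shock gene hsp18a (300.2 ± 33.6 in Han21, 125 ± 24.6 in Ye478; SD, n = 3 each) were the clearest. Antioxidant genes passed in 6 of 15 cases (40%), 3 higher and 3 lower. The catalase gene CAT3, which removes hydrogen peroxide, gave 1805, 2065 and 1803 in Han21 and 8588, 8235 and 6473 in Ye478, a difference of -2.03 ± 0.17 (adjusted p = 4.02e-09). The 2 ferritin genes, for iron storage, went opposite ways: fer1 was higher (0.60 ± 0.12) and fer2 lower in Han21 (-0.97 ± 0.14).

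Aquaporins, the membrane channels for water and small solutes, differed in 11 of 25 cases, 7 higher and 4 lower in Han21, 44% called against 32.6% of all tested probe sets, with a median of 0.01. Counting all 30 probe sets of the list, 7 were higher and 7 lower. Among the lower ones were all 4 tested probe sets of PIP1-3, a gene named after its values were seen (-1.04 to -0.53). The plasma membrane aquaporin pip1e gave 353, 370 and 412 in Han21 and 46.6, 25.2 and 40.5 in Ye478, a difference of 3.22 ± 0.23 (adjusted p = 2.07e-10). The tonoplast aquaporin tip2b gave 241, 189 and 139 in Han21 and 42.9, 27.9 and 21.7 in Ye478 (2.47 ± 0.37). Lsi6, a silicon channel known from rice, gave 1317, 887 and 1023 in Han21 and 182, 182 and 349 in Ye478 (2.21 ± 0.27). None of these 3 genes overlapped between the lines, and neither did 43.6% of all tested probe sets.

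Photosynthesis genes that passed went both ways. In the light reactions 3 of 13 genes passed by their brightest probe set, 1 higher and 2 lower, 23.1% called against 32.6% of all tested probe sets, while 7 of all 17 probe sets of the list passed, 2 higher and 5 lower. The 13 genes had a median size of difference of 0.18 against 0.29 over all tested probe sets. The ferredoxin gene FDX6 averaged 665 ± 88.7 in Han21 and 2064 ± 548 in Ye478 (-1.60 ± 0.20), the antenna gene lhcb6 4672 ± 316 in Han21 and 7288 ± 1087 in Ye478 (-0.63 ± 0.23), and the photosystem I gene psad1 5725 ± 440 in Han21 and 4159 ± 441 in Ye478 (0.46 ± 0.15; SD, n = 3 each). The calls of this lhcb6 probe set and of psad1 were lost when arrays were left out. Their adjusted p was 0.239 without the replicate 2 arrays and 0.191 without the replicate 1 arrays. In the main fit all 3 tested lhcb6 probe sets were called lower in Han21, from -0.85 to -0.63. In the C4 and Calvin cycle list, PPCK1, the phosphoenolpyruvate carboxylase pep4 (0.74 ± 0.18) and the malic enzyme me2 (0.48 ± 0.13) were higher. By their brightest probe set 10 of the 13 genes did not pass, so 23.1% were called. Counting all 18 probe sets of the list, 1 was lower, a probe set of pdk1, the pyruvate phosphate dikinase of the C4 cycle, named after its values were seen (-0.52, adjusted p = 0.00889). The pep4 and me2 calls ended at adjusted p = 0.0746 without replicate 1 and 0.0628 without replicate 2.

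Sugar and nitrogen genes differed in both directions. Of 14 sucrose and starch genes 2 were higher and 5 lower, none by 2-fold, 50% called against 32.6% of all tested probe sets. The sucrose synthase sus2 was lower (81.3 ± 1.85 in Han21, 167 ± 20.7 in Ye478) and the cell wall invertase incw1 higher (280 ± 28.8 in Han21, 151 ± 35.3 in Ye478). GLG1, for a subunit of ADP-glucose pyrophosphorylase, was lower (1956 ± 197 in Han21, 2905 ± 87.3 in Ye478; SD, n = 3 each). The GLG1 call ended at an adjusted p of 0.106 without the replicate 2 arrays. Of 12 nitrogen genes 3 were higher and 3 lower (50% called). Asparagine synthetase asn1 and the glutamine synthetase GLN6 (831 ± 184 in Han21, 1684 ± 121 in Ye478) were lower and the glutamate dehydrogenase gdh1 (531 ± 36.7 in Han21, 241 ± 22.1 in Ye478; SD, n = 3 each) was higher.

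Of 23 expansin, cellulose synthase and wall genes, 6 were higher and 4 lower in Han21, 43.5% called against 32.6% of all tested probe sets. The wall-loosening beta-expansins differed in direction, with expB6 at 1589 ± 62.3 in Han21 and 571 ± 71.5 in Ye478 and expB4 at 698 ± 152 in Han21 and 2212 ± 589 in Ye478 (SD, n = 3 each). The xyloglucan-modifying gene xet1 was lower (-1.26 ± 0.19). Tubulin and actin-binding genes passed in 2 of 15 cases (13.3%). TUBB2, a beta-tubulin, gave 635, 531 and 480 in Han21 and 131, 104 and 107 in Ye478. The other, profilin-2, was lower (-0.37 ± 0.12), a call that was lost at an adjusted p of 0.264 without the replicate 1 arrays. In the cell cycle and histone list 2 of 16 passed (12.5%), both higher: the linker histone his1 and the cyclin cycD2 (0.56 ± 0.15; adjusted p = 0.104 without the replicate 2 arrays). The histone his2b5 had a difference of -1.07 that did not pass (adjusted p = 0.0601; 0.0199 with the block).

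Of 18 ribosomal protein genes 3 were higher and 3 lower, RPL19 (0.53 ± 0.10) and rpl30 (-0.53 ± 0.11) among them. The share called was 33.3%, against 32.6% of all tested probe sets. Of 23 transcription factor genes 3 were higher and 2 lower (21.7% called). MYB-IF35 was higher (278 ± 50.8 in Han21, 150.2 ± 33.0 in Ye478), hox3, a homeobox gene, was lower (281 ± 49.3 in Han21, 497 ± 88.7 in Ye478) and Hb2 was lower (190 ± 28.0 in Han21, 751 ± 56.6 in Ye478; SD, n = 3 each). The symbol Hb2 stands for a haemoglobin in maize, although the pattern for homeobox names picked it up. Hb2 and hox3 lost their calls in places, at adjusted p = 0.0561 without the constant and 0.18 without the replicate 2 arrays. Of 19 hormone genes 3 were higher and 4 lower (36.8% called). They were led by abp4, by the ethylene-forming oxidase gene acco20 (207 ± 64.4 in Han21, 803 ± 126 in Ye478) and by the cytokinin receptor kinase HK1 (173 ± 35.5 in Han21, 88.2 ± 13.7 in Ye478; SD, n = 3 each). The HK1 call ended at an adjusted p of 0.0688 without the replicate 2 arrays. None of the 6 tested kernel storage genes passed by the limma test, meg6 (-0.18), esp5 (0.44) and glb1 (-1.02, adjusted p = 0.108) included, and the oleosin ole1 stayed under 15 in signal on all 6 arrays.

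For 121 genes 2 or more probe sets were tested, 289 probe sets in all. At least one passed for 55 genes. In 11 of these genes all probe sets passed in the same direction, in 29 some passed and the rest had the same sign, in 13 some passed while another had the opposite sign without passing, and in 2 probe sets passed in opposite directions. Grouping instead by the UniGene cluster number in the probe set ID gave 991 clusters of 2830 probe sets, with 93 clusters passing wholly in one direction, 196 in part with the same sign, 176 in part with mixed signs, and 68 in both directions. Clusters can join related but distinct transcripts, so these counts are a description of the array.

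Where all probe sets passed together, the line difference was seen on more than 1 probe set. Whether these probe sets share oligonucleotides was not examined. The IDs of the 2 UMPS probe sets differ only in their suffix, as do those of the 2 lox1 probe sets. For mstr1, one probe set gave 511, 301 and 338 in Han21 and 3113, 2811 and 3354 in Ye478, and the other gave 198, 222 and 194 in Han21 and 1451, 1112 and 1174 in Ye478. The differences were -3.03 ± 0.21 and -2.57 ± 0.21, and the pair did not differ by the test (adjusted p = 0.166). For the UMP synthase gene UMPS, of pyrimidine synthesis, the differences were 1.47 ± 0.28 and 1.21 ± 0.19. For lox1 they were -2.12 ± 0.48 and -1.28 ± 0.41, and the smaller one lost its call at an adjusted p of 0.193 without the replicate 1 arrays. The 3 probe sets of his1 were all higher in Han21, at 2.55 ± 0.19, 2.16 ± 0.25 and 1.11 ± 0.22, and the first and last differed in size (adjusted p = 4.61e-05). A gene with no symbol had differences of 1.57 and 1.02 on its probe sets. Another gene with no symbol had 1.59 and 1.31, resting on values spread from 14.2 to 151 and from 32.4 to 202 in Han21, and both calls were lost at adjusted p = 0.373 and 0.333 without the replicate 2 arrays.

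Elsewhere the probe sets of one gene did not give the same line difference. Of 229 pairs of probe sets of one gene, 56 (24.5%) differed between each other in the size of the line difference at an adjusted p under 0.05, and 28 did without the replicate 2 arrays. Of 3701 pairs within a UniGene cluster, 1158 (31.3%) did. Among the 51 pairs of one gene in which a member passed at 2-fold or more, both passed in the same direction in 21 and 36 differed in size.

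The clearest case was aoc1, an allene oxide cyclase gene of jasmonate synthesis. One of its probe sets gave 2449, 1882 and 1234 in Han21 and 425, 293 and 374 in Ye478, while the other gave 84.1, 81.4 and 53.3 in Han21 and 369, 369 and 451 in Ye478. One was higher by 2.30 ± 0.24 and the other lower by -2.39 ± 0.32, and the pair differed by -4.69 ± 0.35 (adjusted p = 1.75e-08). The gene pgr5 also passed both ways, at 0.81 ± 0.20 and -1.38 ± 0.14. No line direction can be given for either gene.

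In other genes a called probe set stood beside one that did not pass. One probe set of aba1, a gene also called asr1 after its induction by abscisic acid, stress and ripening, gave 8775, 11423 and 8062 in Han21 and 1188, 1335 and 1035 in Ye478, a difference of 2.98 ± 0.43. The other probe set of aba1 gave 7945, 13168 and 9296 in Han21 and 10864, 10454 and 8611 in Ye478, with groups that overlap and no difference that passed (adjusted p = 0.993). The pair differed with an adjusted p of 0.000228. For PLTP, one probe set gave 630, 992 and 901 in Han21 and 12773, 12728 and 8284 in Ye478 (-3.73 ± 0.39), a dim one had -1.02 ± 0.28, and a bright one gave 8260, 12320 and 7193 in Han21 and 8641, 9243 and 6219 in Ye478 (0.19 ± 0.24). The call of the dim PLTP probe set ended at an adjusted p of 0.0724 without the replicate 3 arrays.

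The glutathione S-transferase gst13 gave 811, 592 and 528 in Han21 and 48.1, 26.3 and 19.1 in Ye478 on one probe set (4.24 ± 0.32), and 373, 366 and 354 in Han21 and 551, 681 and 656 in Ye478 on the other (-0.77 ± 0.50, adjusted p = 0.27). The 4 probe sets of the beta-tubulin gene tub6 ran from -0.70 ± 0.32 to 2.34 ± 0.20. The middle ones were at 0.65 and 1.22, and with the block the outermost low one (adjusted p = 0.0118) and the one at 0.65 (adjusted p = 0.00173) passed too, in opposite directions. For piip1, 3 probe sets lay between 3.63 and 4.22 and the brightest one at -0.02 ± 0.17. For asn1, one probe set gave 157, 207 and 133 in Han21 and 992, 1033 and 1024 in Ye478 (-2.61 ± 0.19), while the dimmer one had -0.30 ± 0.27. For pglcat8 one probe set had 1.26 ± 0.23 and the other 2 had 0.14 and 0.13. The ubc7 probe sets ranged from 0.29 to 2.65, and the dimmer of the 2 high ones shares its UniGene cluster number with probe sets of the zein gene gz27.

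**Figure D4:**
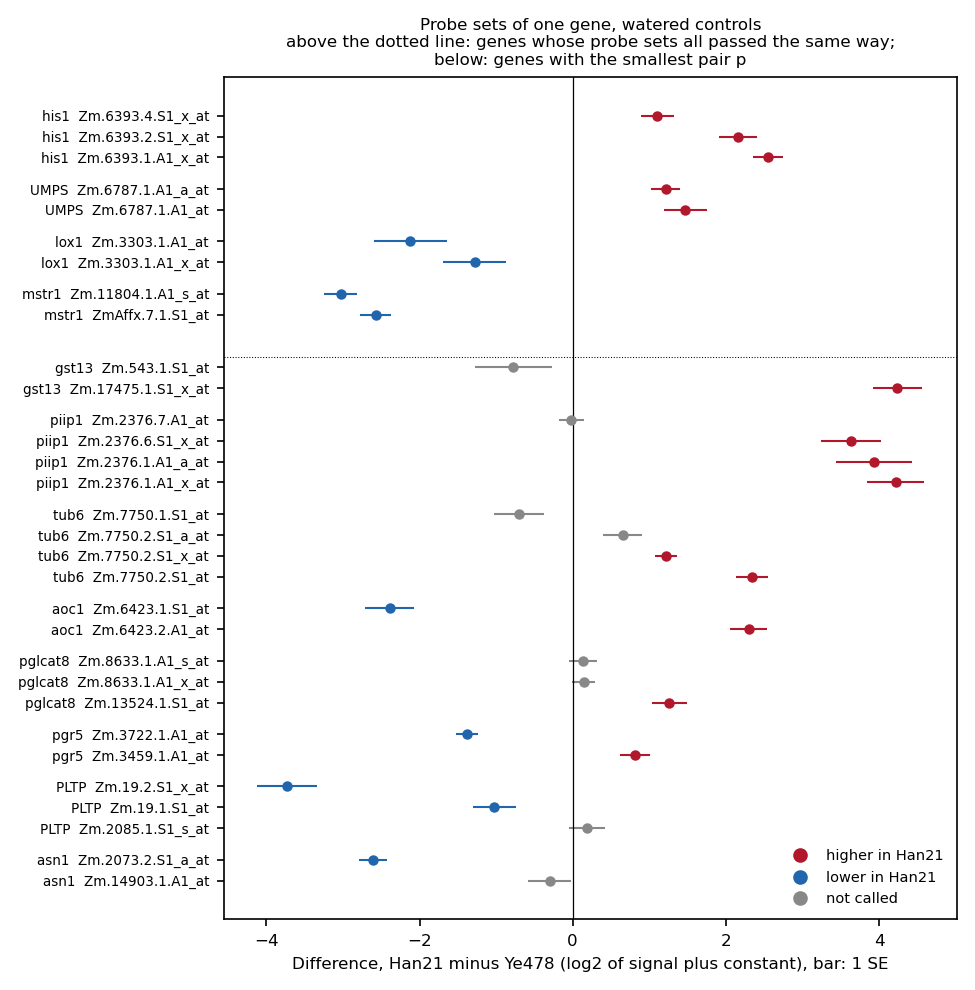
Line difference (Han21 minus Ye478, log2 of signal plus constant, point with 1 SE) of each tested probe set of named genes with several probe sets. Above the dotted line every probe set of a gene passed the same way; below it are the 8 genes with the smallest pair p, where points of one gene lie on both sides of 0 (aoc1, pgr5, tub6, PLTP, gst13, piip1) or at very different sizes (asn1, pglcat8).

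The disagreement between probe sets was itself often the same on the arrays of the other treatments. Of the 56 differing pairs, 32 also differed in the same direction under moderate drought, severe drought and re-watering. The aba1 pair differed by -2.98 in the controls and by -1.90, -2.55 and -4.36 under moderate drought, severe drought and re-watering. The pair of the lowest and the bright PLTP probe set differed by -3.92 in the controls and by -4.24, -3.66 and -3.63 in the other treatments. In contrast, the piip1 pair of the highest and the brightest probe set differed by 4.23 in the controls, -0.48 in moderate drought, 0.15 in severe drought and 4.37 on re-watering, and the gst13 pair by 5.02, 0.31, -1.77 and 5.28.

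The line differences of the controls were then set against the same contrast on the 18 arrays of the other treatments. These contrasts share no array with that of the controls, but they share the estimate of the spread. Of the 3944 probe sets called in the controls, 1931 (49%) were called in the same direction in all 3 other treatments. A further 336 (8.52%) were called in the opposite direction in at least 1. Over all tested probe sets, called in the controls or not, these shares were 19.7% and 17.1%. The contrasts in the other treatments called 42.7% (moderate drought), 44.4% (severe drought) and 44% (re-watering) of tested probe sets. Of the 636 probe sets with at least 4-fold differences, 573 (90.1%) were called the same way in all 3 and 7 the opposite way in at least 1. By the interaction test, the line difference changed with treatment for 1726 of the 3944 (43.8%), against 31.6% of all tested probe sets. The 3944 were chosen by their control difference, which enters this test, so these shares are not like for like. With the replicate number as a block, 4882 probe sets were called, and the line difference of 2749 of these changed with treatment.

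The difference of abp4 was similar in the 4 treatments, at -2.40 in the controls, -2.64 in moderate drought, -2.37 in severe drought and -2.69 on re-watering (interaction adjusted p = 0.192). The rps21b differences were 3.47, 3.19, 3.60 and 4.01 in the same order, those of his1 on its first probe set 2.55, 2.40, 3.01 and 2.26, and those of csr1 2.51, 2.42, 1.86 and 2.60, none with an interaction that passed. The gst19 difference of 6.42 was smaller elsewhere, at 1.91, 1.97 and 2.29 (interaction adjusted p = 1.1e-08). That of fht1 was 2.68 in the controls and 0.70, 0.18 and -0.52 in the other treatments (interaction adjusted p = 7.82e-06). That of asn1 on its brighter probe set was -2.61, -1.06, -0.27 and -3.19, so the lines were apart in control and re-watered shoots and not distinguishable under severe drought (adjusted p = 0.259).

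**Figure D5:**
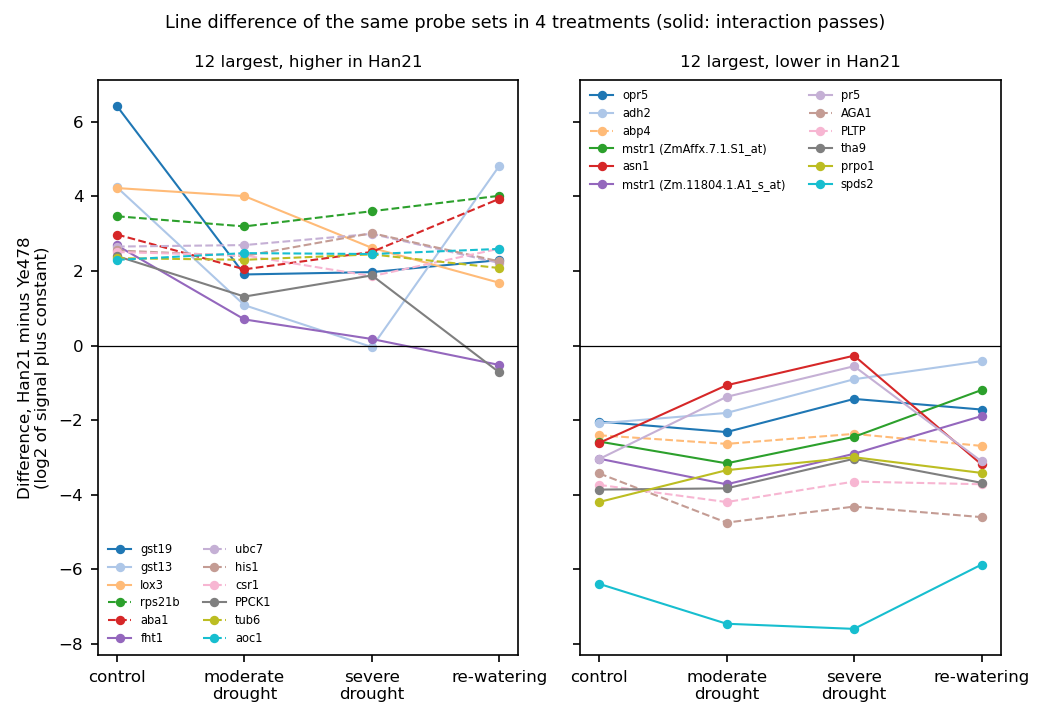
Line difference (Han21 minus Ye478, log2 of signal plus constant) of the 24 probe sets with the largest control differences, in the controls and in the 3 other treatments, each line joining one probe set. Solid lines mark probe sets whose interaction with treatment passed; gst19, gst13, fht1 and PPCK1 come close to or cross 0 in another treatment or lose most of their difference, while rps21b, his1, abp4 and PLTP run nearly level.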

How the data were processed

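The deposited table holds linear MAS5 signal intensity values for 24 arrays, scaled by the authors: the trimmed mean, without the lowest and highest 2%, was 500.1 to 500.2 on every array. GCOS and MAS5 are named in the submitters' processing notes, without versions. Detection calls are not used here. Precision is limited by how many arrays there are. The 113 AFFX control probe sets were left out. Signals were taken as log2 after adding 4.559, the 10th percentile of all values, so differences of dim probe sets are understated. Probe sets above their array's 40th percentile on at least 3 arrays were tested (12111 of 17621). limma 3.58.1 in R 4.3.3 fitted one mean per group over all 24 arrays (eBayes with trend, 16 residual and 5.01 prior degrees of freedom). Benjamini-Hochberg adjustment ran over all tested probe sets, with a threshold of 0.05. Pairs of probe sets of one gene were tested on their difference per array, without trend, and adjusted over 229 pairs. The tests were checked on simulated data.

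Genes came from the platform annotation (1452 probe sets with 1 gene, 1 with several) and 1060 of 1108 genes were matched by gene ID to RefSeq (Zm-B73-REFERENCE-NAM-5.0), from which only names were taken. The genes, the 21 lists and the tests were chosen with earlier results of these data known. Lists were symbol patterns matched to any name of a gene, with 40 memberships left out because the name means another protein. The text names the 12 largest differences each way among called genes whose lines do not overlap and whose higher mean reaches the median, up to 3 genes per list by adjusted p, the 8 genes with the smallest pair p, of the genes whose probe sets all passed the same way the 6 with the largest smallest difference, and 2 unnamed probe sets each way.

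The labels do not say what a replicate number shares. Deviations of same-numbered control arrays of the lines correlated with r = 0.504, 0.426 and 0.462 over probe sets, so the number was taken to pair them, and a fit with it as a block is an alternative. Whether replicates are separate sowings is not stated, so p-values measure the spread between these arrays only. Other alternatives were the normalization, filter, constant, variance model, arrays in the fit, and leaving out arrays. No 2 control arrays held the same values.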

Additional observations from a re-analysis of the deposited data

Results flagged for a closer look

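For 64 of the 107 named probe sets the line difference changed with treatment by the interaction test (limma, adjusted p under 0.05), and 53 of these were called in the controls too. The values below are differences, Han21 minus Ye478, on the log2 scale, in the treatment that lay farthest from the controls. No cause was tested, and about 31.6% of all tested probe sets passed the same interaction test. Many named probe sets were chosen for their control difference, which enters this test, so the shares are not like for like. In 5 probe sets the lines were called in opposite directions. Hb2 had 1.55 under moderate drought, against -1.96 in the controls. PPCK1 had -0.72 after re-watering, against 2.40 in the controls. hsp18a had -1.17 after re-watering, against 1.25 in the controls. MYB-IF35 had -0.49 under severe drought, against 0.88 in the controls. incw1 had -1.72 under severe drought, against 0.89 in the controls.

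Under moderate drought, the difference was called as higher in Han21 at 3.12 for expB6, 2.36 for 4CL, 2.20 for cncr1, 2.17 for bip2 and 1.91 for gst19. The pglcat8 probe set at 0.13 in the controls was called as higher too, at 1.01. It was called as lower in Han21 at -0.58 for expB4 and -2.13 for GLN6. It was not called at 0.46 for the bx6 probe set at -0.52 in the controls and 0.32 for igl1. Nor was it called at 0.38 and -0.13 for the piip1 probe sets at 3.63 and 4.22 in the controls. The aoc1 probe set at -2.39 in the controls (-0.15) and the pgr5 probe set at 0.81 in the controls (-0.18) were not called either. The other aoc1 probe set, at 2.30 in the controls, was called as higher in Han21 at 2.48.

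Under severe drought, the difference was called as higher in Han21 at 2.27 for ccr2, 2.18 for an unnamed probe set (1.02 in the controls), 1.73 for the gst13 probe set at -0.77 in the controls, 1.62 for TUBB2, 1.30 for glu2, 0.70 for meg6 and 0.54 for gdh1. It was called as lower in Han21 at -0.48 for CAT3, -1.43 for opr5, -2.99 for prpo1, -3.03 for tha9, -3.12 for FDX6, -3.94 for ole1 and -3.97 for an unnamed probe set (-9.19 in the controls). Other such values were -7.59 for spds2. It was not called at 0.0410 for rpl30, 0.0258 for sus2, 0.0202 for the piip1 probe set at 3.93 in the controls, -0.0398 for the gst13 probe set at 4.24 in the controls, -0.0889 for fer1, -0.27 for the asn1 probe set at -2.61 in the controls and -0.55 for pr5.

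After re-watering, the difference was called as higher in Han21 at 4.03 for Lsi6, 2.54 for an unnamed probe set (7.29 in the controls), 1.68 for lox3, 1.48 for pip1e, 1.03 for psad1 and 0.71 for gst2. It was called as lower in Han21 at -0.58 for xet1, -1.19 for the mstr1 probe set at -2.57 in the controls, -1.43 for vp14, -1.67 for AO1, -1.80 for the asn1 probe set at -0.30 in the controls, -1.89 for the mstr1 probe set at -3.03 in the controls and -2.65 for dhn2. Other such values were -2.67 for glb1, -3.19 for the lox1 probe set at -1.28 in the controls, -3.72 for the lox1 probe set at -2.12 in the controls and -4.49 for mlg3. It was not called at 0.41 for hsp101, 0.25 for hox3, 0.22 for fer2, 0.0766 for RPL19, -0.42 for adh2 and -0.52 for fht1.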

How the results depend on the processing

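The count of called probe sets stayed within 1.5 times of 3944 in every setting tried except without the replicate 2 arrays; leaving out arrays gave 2470 to 3575, and the other settings 3046 (filter at the 60th percentile) to 4882 (replicate block). No call changed sign in any setting tried. The count at 2-fold or more (1704) ran from 1169 to 2075. Quantile normalization and median centring moved the median difference by less than 0.1 and the share of calls higher in Han21 (52.9%) to 51.7% and 50.7%. Pairs of one gene that differed numbered 56, with 28 to 55 when arrays were left out, 75 of 536 pairs with no filter, 72 with the replicate block and 1158 of 3701 by UniGene cluster; their fit already has no trend, so that alternative was not run. Called differences that changed with treatment rose in number to 2749 with the replicate block, out of the 4882 called there. Probe sets high in one line and low in the other fell to 51 when the low line had to lie under the 20th percentile, against 283. Counted by all matching probe sets, 7 passed for the light reactions, 7 for tubulin and actin-binding genes and 4 for cell cycle genes, against 3, 2 and 2 genes. Of 87 named probe sets that were called, 17 lost the call in at least 1 setting, 5 of them also in settings that leave out no array. The replicate block changed the call of 5 named probe sets, given beside them, and of no other. Among named probe sets that were not called, the sign changed when arrays were left out for the brightest piip1 probe set (-0.21 to 0.10), pl1 (-0.00092 to 0.44), the bright PLTP probe set (-0.0390 to 0.35) and the dimmest pglcat8 probe set (-0.0401 to 0.27). The cause of these changes was not tested. Depth cannot be read from array signals, and dim probe sets had the larger errors.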
